A study of Mus musculus with 4 samples.

Results

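Interferon response genes were followed in the livers of 4 male mice, 1 per genotype. The set held 41 genes named by symbol, without the guanylate-binding and class I genes, and all 41 were found among the 33639 genes of the deposited tables. All 41 averaged 1 CPM or more (the count per 1000000 counts, scaled between libraries) and so were measured, like 11743 genes in all. The libraries were a wild type (WT), a global Cyp27a1 knockout (KO), a global knockout labelled Cyp3a4, written Cyp3a KO here because mice carry a Cyp3a family, and the global double knockout of both (DKO). The mice ate standard chow and had no treatment, so that genotype is the labelled difference between them. The labels give neither age nor strain, deleted exons or time of sampling. The series asked how these deletions affect bile acid synthesis.

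Interferons are secreted proteins that warn cells of infection. Binding of a type I interferon to its receptor activates the kinases JAK1 and TYK2, which phosphorylate STAT proteins. Together with IRF9 these form a complex, ISGF3, that binds a DNA element called the interferon-stimulated response element and switches on antiviral genes. Many of these genes also run at a low tonic level without infection, and in liver both hepatocytes and resident macrophages express them.

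With 1 library per genotype no difference has a replicate check, no test across genes was run, and every statement compares these 4 livers. Library totals lay between 49745860 and 50378101 counts, and 1 count was worth 0.0185 to 0.0214 CPM. The lowest count of any member was 35 (Oas1g in the Cyp27a1 KO) and the highest 9067 (Ifitm3 in the Cyp3a KO). Targeted genes followed the labels: Cyp27a1 stood at 746 CPM in WT and at 57.65 CPM in the Cyp27a1 KO, and Cyp3a11 at 8742 CPM in WT and at 0.160 CPM in the Cyp3a KO. In the DKO they stood at 65.3 and 4.76 CPM. Cyp3a11 was above WT in the Cyp27a1 KO, at 23710 CPM. The 6 hepatocyte markers checked were present in each library and summed to between 59400 and 98970 CPM. Most of that was Alb (72500, 37950, 40340 and 65720 CPM in WT, Cyp27a1 KO, Cyp3a KO and DKO), and Ttr was called lower in the DKO against WT (log2 fold -1.17). Intervals in parentheses are exact 95% intervals that cover counting error only. To be called, a measured gene needed a log2 fold (of CPM plus 0.5) of 1 or more in size and a count ratio with an interval that left out 1.

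More interferon response genes were called above WT in the DKO liver than in the Cyp3a KO, and 1 was in the Cyp27a1 KO. In the DKO 12 of 41 members were called higher than WT (29.3%), where 6.00% of all measured genes were, and 0 were called lower, where 4.02% of all genes were. In the Cyp3a KO 5 of 41 were called higher (12.2%), beside 2.56% of all genes, and 0 lower, beside 1.86%. In the Cyp27a1 KO 1 of 41 was called higher, a share of 2.44% that equals the 2.44% of all genes, and 0 were lower, beside 1.36%. Of the 41 members, 15 (36.6%) were called higher in some comparison, beside 8.79% of all measured genes, and 26 were called in none of the 5. Median log2 folds over the 41 members were 0.71 in the DKO, 0.48 in the Cyp3a KO and 0.27 in the Cyp27a1 KO, and those of all measured genes were -0.01, 0.01 and 0.00. These 3 comparisons share the WT library, so a low level in that 1 mouse would appear in each of them.

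**Figure D1:**
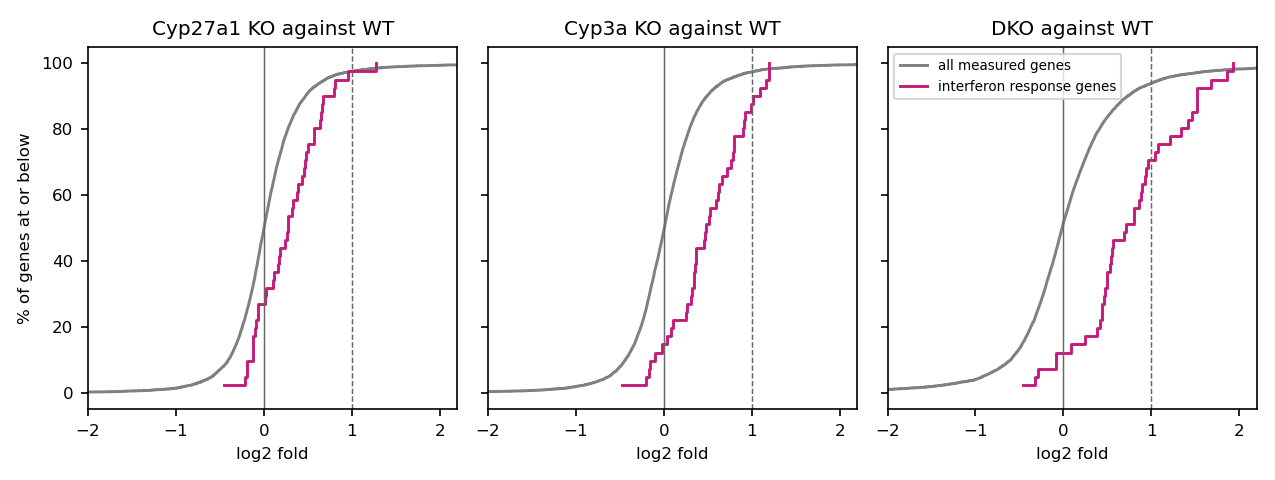
Cumulative share of genes (vertical axis, %) by log2 fold against WT (horizontal axis) in each knockout library, for the 41 interferon response genes (pink) and all 11743 measured genes (grey); the dashed line marks a log2 fold of 1. The pink curve lies to the right of the grey one over most of its length, with medians of 0.27, 0.48 and 0.71 from left to right.

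The order of the 4 libraries showed the same pattern gene by gene. The DKO held the highest CPM for 28 of 41 members (68.3%), against 30.2% of all measured genes. WT held the lowest for 27 of 41 (65.9%), against 29.1%. For 15 members (36.6%) CPM followed the order WT, Cyp27a1 KO, Cyp3a KO, DKO from lowest to highest, an order found in 7.60% of all genes. WT was highest for Isg20 and Bst2 alone, 4.88% of members against 29.0% of all genes. On deposited TPM (transcripts per 1000000, a level scaled by length) the DKO was highest for 35 of 41 members, but also for 57.3% of all genes with a mean of at least 1 TPM.

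By role, the calls in the DKO against WT were 2 of 2 ISG15 genes, 4 of 6 RNA-binding genes, 2 of 6 OAS genes, 2 of 3 RNA sensors, 1 of 4 transcription factors, 1 of 7 effectors, and none of 4 antigen processing genes, 5 ADP-ribosylation and ubiquitin genes and 4 others. Median log2 folds there were 1.52 by counts and 1.68 by TPM for the RNA sensors, 1.34 and 1.74 for the ISG15 genes, and 0.23 and 0.57 for the antigen processing genes.

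The ISG15 system tags proteins with ISG15, a ubiquitin-like protein, and USP18 removes the tag and also dampens receptor signalling. Isg15 (chromosome 4, 156199424 to 156200818, mm10) was measured at 1.89 CPM in WT, 2.49 with Cyp27a1 deleted, 4.99 with Cyp3a deleted and 5.02 with both deleted. Both libraries without Cyp3a were high and close to each other, the DKO being 2.66-fold above WT (2.08 to 3.42) and the Cyp3a KO 2.65-fold (2.07 to 3.41). Usp18 (chromosome 6, 121245906 to 121270917) showed another shape, with 4.55, 5.16, 6.51 and 13.4 CPM in the same order. Its level in the DKO stood apart from the other 3, 2.94-fold above WT (2.52 to 3.45) and 2.59-fold above the Cyp27a1 KO (2.25 to 3.002).

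The IFIT proteins bind foreign RNA and block its translation, and their genes lie together on chromosome 19. Ifit1 (34640871 to 34650009) was lowest in WT, with 1.82 CPM in WT, 2.79 with Cyp27a1 deleted, 4.83 with Cyp3a deleted and 7.94 with both deleted, which was 4.35-fold above WT (3.44 to 5.56). Ifit3 (34583531 to 34588731) followed with 3.63, 5.94, 7.29 and 11.3 CPM, and was 3.13-fold above WT in the DKO (2.63 to 3.73). Ifit2 (34550694 to 34576419) stood at 1.01, 2.15, 2.12 and 3.30 CPM, with the single knockouts alike and the DKO 3.28-fold above WT (2.37 to 4.62). For these genes WT was the lowest and the DKO the highest library, with intervals of the levels that did not overlap between them. Ifit2 has a mean of only 0.863 TPM, and its log2 fold of 1.33 was 0.93 by TPM, under the rule.

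Other RNA-binding members were split. Zbp1, a sensor of Z-form nucleic acid that can start necroptosis, stood at 1.37, 2.07, 3.28 and 3.45 CPM in the order WT, Cyp27a1 KO, Cyp3a KO and DKO. It was called higher in both libraries without Cyp3a, with log2 folds of 1.01 and 1.08, the former just past the rule and 0.94 by TPM. Eif2ak2 (PKR, the kinase that halts translation on double-stranded RNA) and Adar (an RNA-editing enzyme) were called in no comparison, with log2 folds against WT of 0.37 to 0.56 and 0.43 to 0.52.

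The oligoadenylate synthetase family makes the messenger that activates RNase L, an activity that Oasl1 lacks. Oasl1 (chromosome 5, 114923240 to 114937915), which represses translation of IRF7, had the largest fold of all members in the DKO against WT, 4.46-fold (3.59 to 5.59). Its levels were 2.12 CPM in WT, 5.84 with Cyp27a1 deleted, 4.05 with Cyp3a deleted and 9.47 with both deleted. It was the 1 member called in the Cyp27a1 KO against WT, 2.75-fold higher (2.18 to 3.49). Oas2 stood at 1.01, 2.43, 1.32 and 2.603 CPM, so that the 2 libraries without Cyp27a1 were high and the Cyp3a KO was near WT. Its call in the DKO (log2 fold 1.04) ended on deposited TPM, where the log2 fold was 0.55. Oas3 had a similar shape at low counts (0.901, 1.73, 0.879 and 1.403 CPM), and was called nowhere. Oasl2 ranged from 2.68 to 3.69 CPM, with no call.

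Oas1a and Oas1g were nearly level in WT and the single knockouts and highest in the DKO. Their CPM ran from 1.78 to 2.06 and from 0.703 to 0.919 in the first 3 libraries, and stood at 3.05 and 1.79 in the DKO. Neither passed the rule there, with log2 folds of 0.47 and 0.80. The pair is near-identical: of all 31-base words in GENCODE transcripts of Oas1a 68.7% also occur in Oas1g, so the division of counts between them is uncertain. The same holds for Ifit3, which shares 61.8% of its words with Ifit3b, whereas the shares with any other gene were 10.8% for Ifit1, 0.409% for Oasl1 and 0 for Ifit2 and Oas2.

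The cytosolic RNA sensors detect viral double-stranded RNA and signal towards interferon transcription. Ifih1 (MDA5, chromosome 2, 62595798 to 62646255) stood at 12.3 CPM in WT, 19.3 with Cyp27a1 deleted, 26.8 with Cyp3a deleted and 36.05 with both deleted, 2.94-fold above WT (2.68 to 3.24). Ddx58 (RIG-I, chromosome 4, 40203773 to 40239828) followed the same order with 7.36, 11.95, 14.2 and 24.7 CPM, 3.35-fold above WT in the DKO (2.98 to 3.79). In both genes each library's counting interval lay apart from those of the other 3. Dhx58 (LGP2, which tunes both sensors) stood at 3.11, 3.86, 6.67 and 6.52 CPM. By counts it missed the rule narrowly in the Cyp3a KO (log2 fold 0.99) and in the DKO (0.96). By TPM it passed the rule in the DKO, at 1.08, but not in the Cyp3a KO, at 0.87. In the Cyp3a KO the call of Ifih1 (log2 fold 1.10) ended by TPM, at 0.999.

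Among the transcription factors Irf7, the amplifier of type I interferon transcription, stood out. Irf7 (chromosome 7, 141262706 to 141266481) had 17.65 CPM in WT, 31.1 with Cyp27a1 deleted, 27.6 with Cyp3a deleted and 51.6 with both deleted, 2.92-fold above WT (2.70 to 3.16). Both single knockouts were intermediate, and the DKO (log2 fold 1.52) departed by 0.09 from the sum of their log2 folds, 0.80 and 0.63. Irf1 and Irf9 were above WT in each knockout without passing the rule, with log2 folds of 0.28 to 0.88 and 0.57 to 0.72; by TPM both passed it in the DKO, at 1.26 and 1.03. Stat2, the partner of IRF9 in ISGF3, differed little, with 27.95 CPM in WT, 28.15 with Cyp27a1 deleted, 34.7 with Cyp3a deleted and 29.7 with both deleted.

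**Figure D2:**
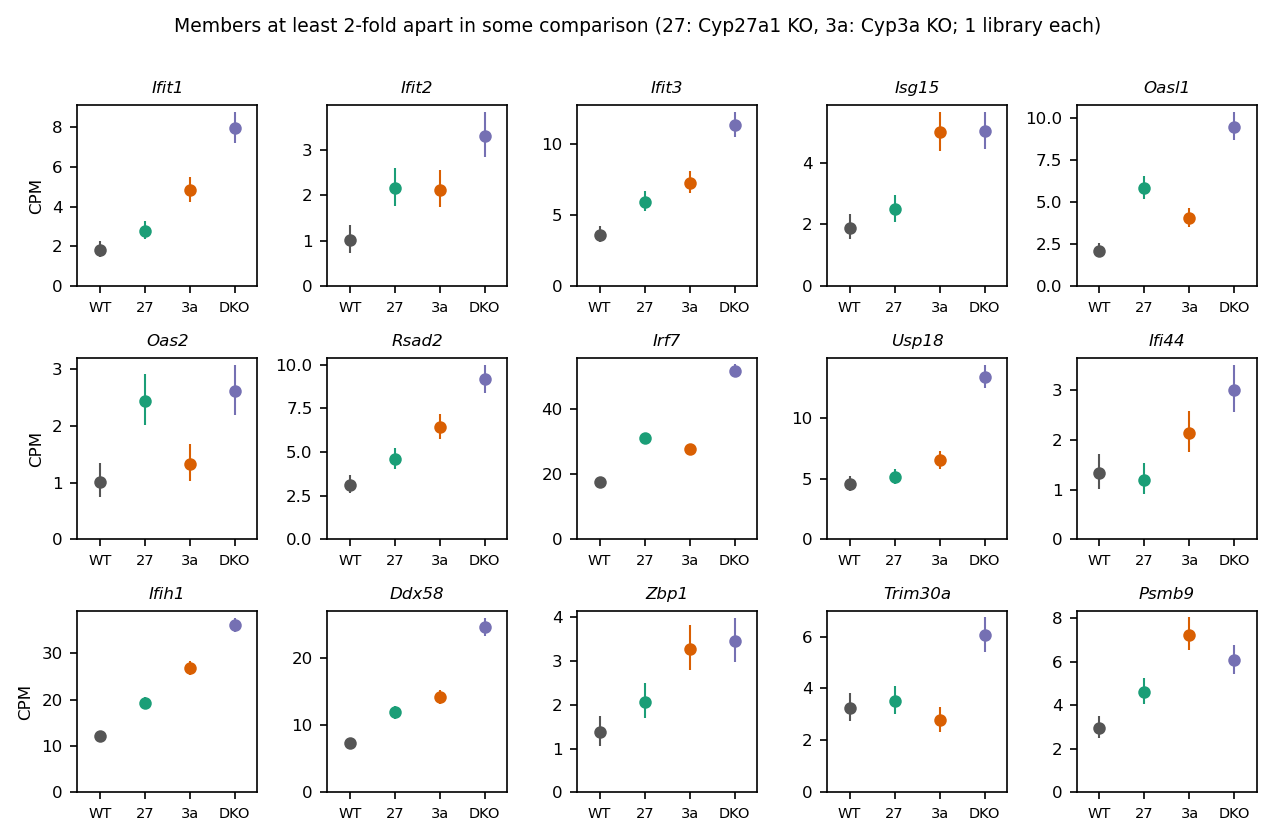
CPM (vertical axes, each from 0) of the 15 members called in at least 1 of the 5 comparisons, in the WT, Cyp27a1 KO (27), Cyp3a KO (3a) and DKO libraries; each point is 1 library and its bar the exact 95% Poisson interval of the count. Ifit1, Ifih1 and Ddx58 step up from WT through both single knockouts to the DKO, whereas Psmb9 is highest in the Cyp3a KO at 7.25 CPM (by TPM the DKO is highest).

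Of the effectors that act on membranes and nucleotides 1 of 7 was called. Rsad2 (viperin, which makes a chain-terminating nucleotide) stood at 3.13 CPM in WT, 4.58 with Cyp27a1 deleted, 6.41 with Cyp3a deleted and 9.16 with both deleted, 2.92-fold above WT (2.43 to 3.54). Its divergent neighbour Cmpk2, a mitochondrial nucleotide kinase, stood at 2.02, 1.91, 3.29 and 4.06 CPM and was not called in any comparison (log2 fold 0.86 in the DKO against WT). Isg20, an exonuclease, was the lowest member in all 3 comparisons with WT, with 1.59 CPM in WT and 0.999 to 1.02 CPM in the knockouts. Rtp4 was above WT in each knockout by log2 folds of 0.11 to 0.54, under the rule. Lgals3bp, a secreted glycoprotein gene, stood at 45.4, 51.1, 63.3 and 63.9 CPM, log2 folds of 0.17 to 0.49.

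The 2 most abundant members per transcript length were called in no comparison. Ifitm3, which blocks viral fusion, had a mean of 426 TPM, and Bst2 (tetherin, which holds budding virions at the cell surface) one of 209 TPM, followed by Ifi27 at 63.3 TPM, Lgals3bp at 36.2 TPM and Irf7 at 27.7 TPM. Ifitm3 stood at 171 CPM in WT, 160 with Cyp27a1 deleted, 181 with Cyp3a deleted and 137 with both deleted, and Bst2 at 108, 93.3, 101 and 88.1 CPM. Their log2 folds in the DKO were -0.32 and -0.29 by counts and 0.04 and 0.05 by TPM, so the direction depends on the scale. At the other end Oas3, with a mean of 0.354 TPM, was the least abundant member. Ifi27 stood at 28.5, 26.8, 36.2 and 40.5 CPM, a log2 fold of 0.50 in the DKO.

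Antigen processing members supply peptides for class I molecules. Psmb9, an immunoproteasome subunit (chromosome 17, 34181987 to 34187764), stood at 2.96 CPM in WT, 4.62 with Cyp27a1 deleted, 7.25 with Cyp3a deleted and 6.07 with both deleted. It was 2.45-fold above WT in the Cyp3a KO (2.01 to 3.002), its only call by counts, while its log2 fold in the DKO was 0.93 by counts and 1.44 by TPM. Tap1, a subunit of the peptide transporter, starts 211 bases from Psmb9 on the opposite strand. Tap1 had the same order of libraries by counts at smaller folds, with 9.01, 11.5, 14.5 and 13.4 CPM and no call. Psmb8 (11.7, 10.2, 12.0 and 11.0 CPM) and Tap2 (12.5, 10.8, 16.3 and 11.7 CPM), which lie in the same segment, had log2 folds in the DKO of -0.09 each by counts and of 0.24 and 0.08 by TPM. The library kit does not mark strand, so reads where genes overlap cannot be assigned to 1 of them, and Psmb9 shares 4.79% of its 31-base words with Tap1.

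Of the ADP-ribosyl transferase, ubiquitin and nuclear body genes 1 was called. Trim30a, a TRIM protein that restrains NF-kB signalling, stood at 3.26 CPM in WT, 3.53 with Cyp27a1 deleted, 2.78 with Cyp3a deleted and 6.05 with both deleted, which was the only high library by counts. In TPM the levels were 2.12, 1.27, 1.28 and 2.63 in that order. WT was then near the DKO (log2 fold 0.26), and both single knockouts were lower. The call came from the DKO against the Cyp3a KO (2.18-fold, 1.78 to 2.68), at a log2 fold of 1.001 on the edge of the rule and 0.81 by TPM. Parp9 and Dtx3l, whose proteins form a ubiquitin ligase pair, start 681 bases apart on opposite strands and had nearly equal log2 folds in the DKO, 0.38 and 0.42, and in the Cyp3a KO, 0.35 and 0.37, but 0.02 and 0.24 in the Cyp27a1 KO. In these genes reads from the overlap are likewise not assignable. Parp14 (0.89 in the DKO) and Sp100 (0.46) were above WT under the rule by counts, and by TPM Parp14 passed it at 1.09. Among the remaining members Ifi44, with 1.33, 1.19, 2.14 and 3.01 CPM in the order WT, Cyp27a1 KO, Cyp3a KO and DKO, was called in the DKO against the Cyp27a1 KO (2.54-fold, 1.87 to 3.48). Ifi35 (11.1, 13.4, 17.4 and 16.2 CPM) and Xaf1 were called nowhere, with log2 folds in the DKO against WT of 0.53 and 0.69; by TPM Xaf1 passed the rule there at 1.26.

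**Figure D3:**
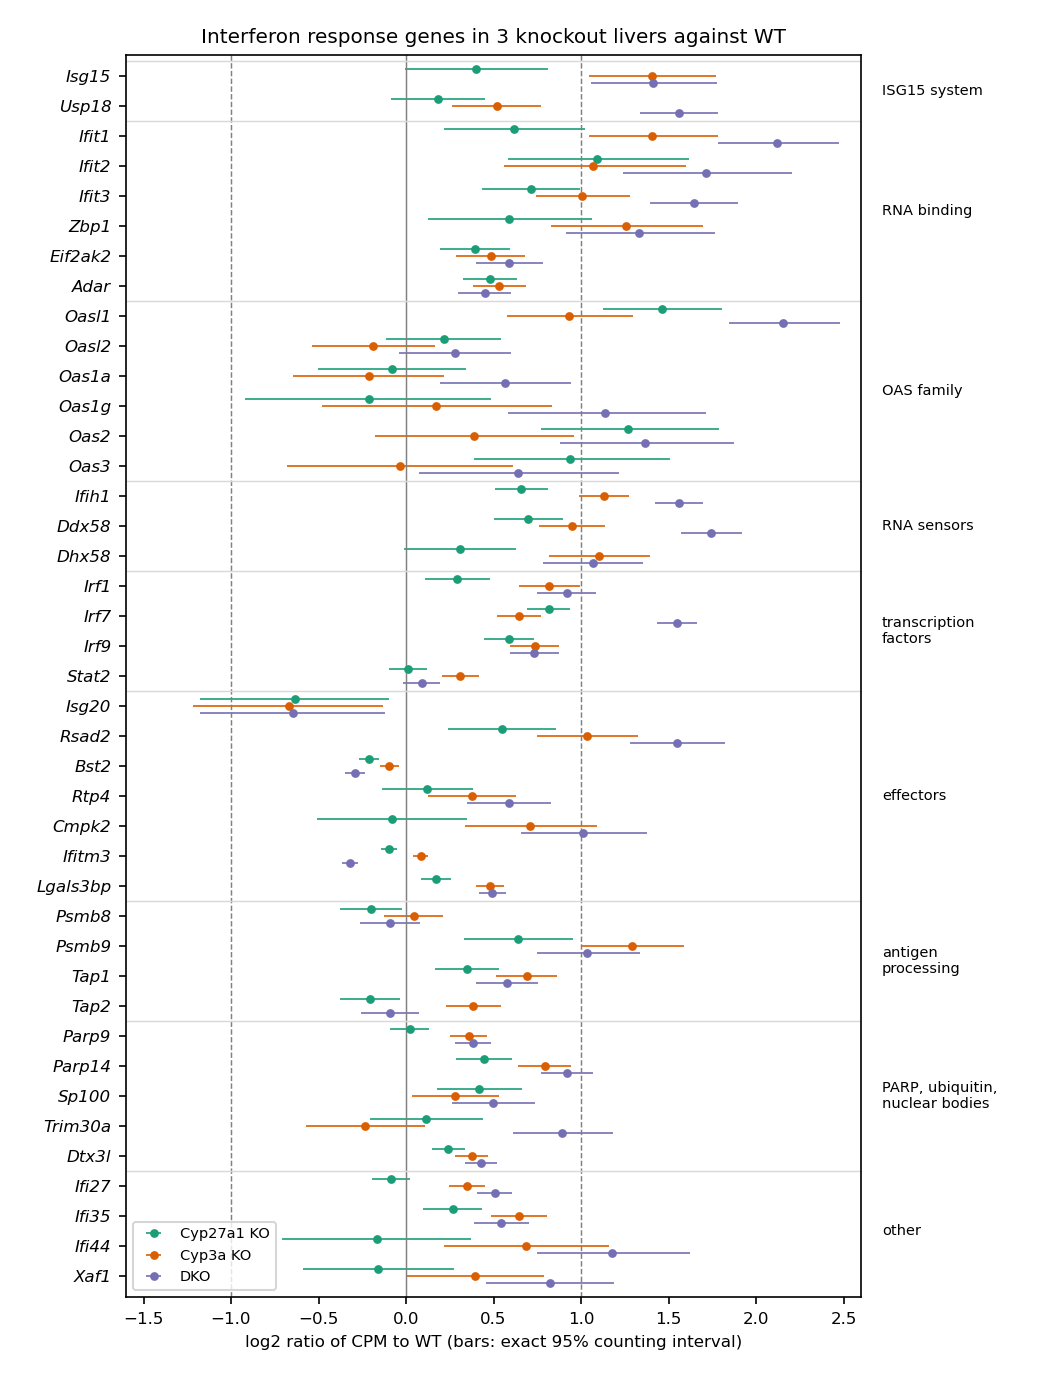
Log2 ratio of CPM to WT (horizontal axis, without the added 0.5) of the 41 members, grouped by role, in the Cyp27a1 KO, Cyp3a KO and DKO; bars are exact 95% counting intervals and dashed lines mark 2-fold. The RNA sensors and IFIT genes lie to the right in all 3 libraries, while Bst2, Ifitm3, Psmb8 and Tap2 lie within 2-fold on either side of 0, with directions in the DKO that differ by TPM.

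To show what the members share in sequence, the promoter windows of RefSeq (GRCm38.p6, 250 bases before to 50 after a start) were searched on both strands for GAAA, 2 bases of any kind and GAAA again, the core of the interferon-stimulated response element. Windows were at hand for 32 of 41 members. Of these 14 held the motif (43.8%), where 3.99% of all 27025 genes with a window did. Among the 9 members with a window that were called higher in the DKO against WT, 6 held it, and among the 23 not called, 8 did. A match is a run of letters, not a site or a cause, and overlapping matches were each counted. These sequences set members that were high in the DKO beside members with the same core that were level or under the rule. Capitals mark the motif, which reads TTTC, 2 bases and TTTC where it lies on the other strand, and each run lies before the start.
Isg15, chr4:156200870-156200901, minus strand: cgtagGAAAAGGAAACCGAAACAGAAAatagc
Ifit1, chr19:34640780-34640818, plus strand: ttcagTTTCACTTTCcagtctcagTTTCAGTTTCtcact
Ifit3, chr19:34583368-34583421, plus strand: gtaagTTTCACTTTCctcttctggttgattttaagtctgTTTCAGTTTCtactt
Rsad2, chr12:26456558-26456577, minus strand: ccaacTTTCATTTTCagaaa
Bst2, chr8:71537582-71537607, minus strand: tccagGAAAATGAAACTGAAAggctg
Stat2, chr10:128270271-128270290, plus strand: cctggTTTCAGTTTCctttc
Oas1a, chr5:120907526-120907550, minus strand: ctcggGAAATGGAAACTGAAAatct
Oas1g, chr5:120887614-120887636, minus strand: ctcggGAAATGGAAACTGAAAat
Isg15 carries 3 overlapping copies and Ifit1 and Ifit3 carry 2 separate ones, all 3 genes being at least 2.66-fold above WT in the DKO. Bst2 carries 2 overlapping copies and stood at 88.1 CPM in the DKO against 108 CPM in WT, so the core was also present where the level was not raised. Oas1a and Oas1g show the same run before their starts, and their counts cannot be fully separated either.

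Loss of each gene could be read in 2 pairs of libraries that have no library in common. For loss of Cyp3a the members' median log2 fold was 0.48 (from WT to the Cyp3a KO) and 0.47 (from the Cyp27a1 KO to the DKO), where the medians of all genes were 0.01 and -0.01. In both pairs the log2 fold was above 0 for 33 of 41 members (80.5%), beside 28.8% of all genes. For 27 members (65.9%) both count ratios had an interval above 1, beside 13.7% of all genes. In the DKO against the Cyp27a1 KO 4 members were called higher (9.76%, beside 2.84% of all genes) and 0 lower (beside 2.59%), namely Ifit1, Usp18, Ifi44 and Ddx58. Ifit1 was the 1 member called in both pairs, 2.65-fold (2.06 to 3.44) and 2.84-fold higher (2.34 to 3.47).

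Loss of Cyp27a1 gave smaller medians over the 41 members, but by counts larger ones over the 6 OAS genes (0.43 and 0.665 in the pairs with WT and with the DKO, against 0.04 and 0.31 for loss of Cyp3a). By TPM, with 4 OAS genes measured, the medians were 0.20 and 0.85, against 0.00 and 0.74 for loss of Cyp3a. Those of all genes were then 0.18 and 0.24, against 0.09 and 0.16. The median log2 fold of the members was 0.27 in the Cyp27a1 KO against WT and 0.16 in the DKO against the Cyp3a KO, beside 0.00 and -0.02 for all genes. It was above 0 in both pairs for 23 of 41 members (56.1%), beside 29.1% of all genes, and both intervals lay above 1 for 11 (26.8%), beside 15.0%. These 11 were Ifit1, Ifit2, Ifit3, Oasl1, Oas2, Oas3, Rsad2, Irf7, Ifih1, Ddx58 and Parp14. In the DKO against the Cyp3a KO 2 members were called higher, Oasl1 and Trim30a, and 7 of 11 Kupffer cell markers were called higher beside them. That share of 4.88% is near the 4.02% of all genes, and 0 were lower, beside 2.70%. Oasl1 was called in both pairs by counts, 2.75-fold (2.18 to 3.49) and 2.34-fold higher (1.98 to 2.76). By TPM its log2 folds in these pairs were 1.26 and 0.88, the latter under the rule. On that scale Oasl1 also passed the rule in the Cyp3a KO against WT, at 1.20. Bst2, Ifitm3 and Tap2 had intervals below 1 in both pairs, with log2 folds between -0.10 and -0.46 by counts, but by TPM between 0.08 and -0.13 with signs that differ. No test compared the size of the 2 losses.

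**Figure D4:**
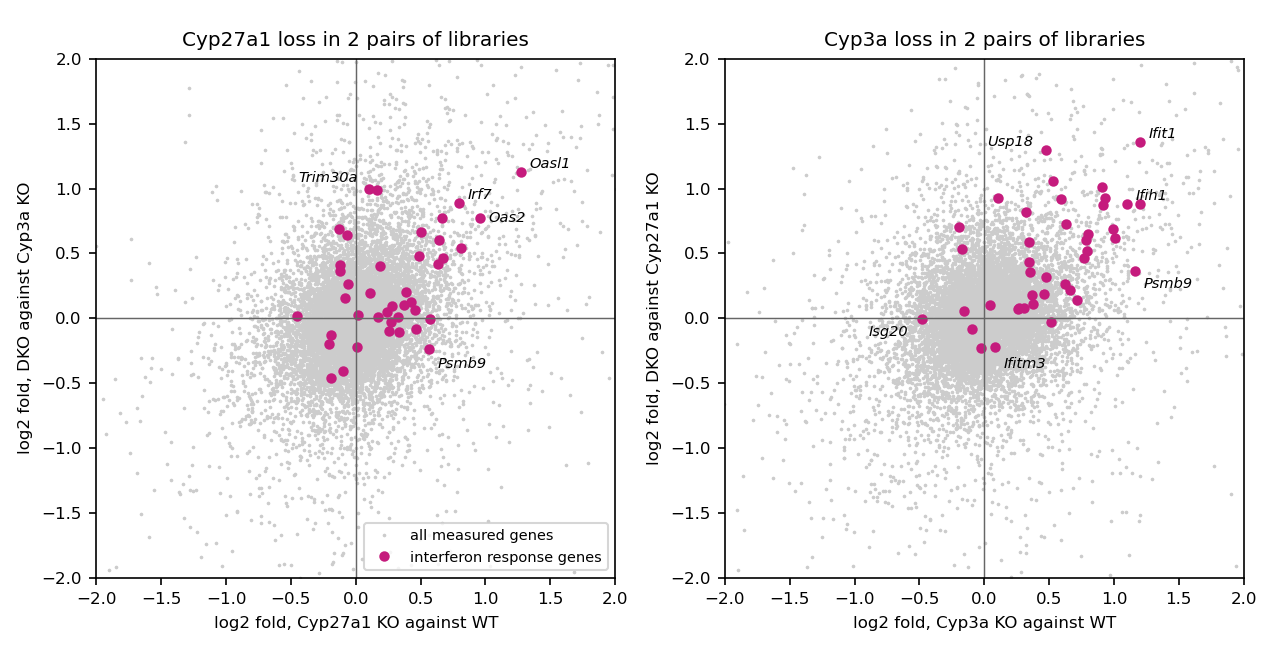
Log2 fold for loss of Cyp27a1 (left) and of Cyp3a (right), in the pair with WT (horizontal axes) and in the pair with the DKO (vertical axes), for the 41 members (pink) and all measured genes (grey); genes beyond 2 in size are not drawn. For Cyp3a loss 33 of 41 members lie above 0 on both axes, and for Cyp27a1 loss 23 of 41.

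Set against the sum of both single knockouts on the log2 scale, the DKO was by counts lower for 24 members and higher for 17. The share higher was 41.5%, beside 47.6% of all genes, and the median departure was -0.16, beside -0.02 for all genes. By TPM the DKO was lower for 19 and higher for 22, with a median of 0.04, beside 0.06, so the direction depends on the scale. Upwards, Trim30a (0.90 by counts, 1.38 by TPM), Usp18 (0.82 and 0.88) and Oas1g (0.82 and 1.41) departed most by counts. By counts no member departed by 1 or more, as 6.89% of all genes did, and by TPM Trim30a and Oas1g did (4.88%, beside 7.87%). Downwards, Psmb9 departed most by counts (-0.80) but by -0.26 by TPM, and Irf9 departed by -0.58 and -0.60. An approximate 95% counting interval, by counts, lay above 0 for 4 members (Oas1a, Usp18, Ifi27 and Trim30a) and below 0 for 13. The like shares of all genes were not computed, so these counts have no background beside them.

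Upstream genes of the pathway showed few differences. Of 10 interferon genes examined 8, among them Ifnb1 and Ifna4, had 0 counts in every library, which allows up to 0.0554 to 0.0643 CPM. Ifng had 3 counts in the DKO and 0 elsewhere, and Ifnk had 0 to 3. Of 8 measured receptor and kinase genes 0 were called by counts in any of the 5 comparisons (by TPM 2 in the DKO against WT and 1 in the DKO against the Cyp3a KO), Tyk2 having the largest log2 fold in the DKO against WT (0.83). Of 9 measured nucleic acid sensing genes outside the members 1 was called: Ikbke, a kinase that activates IRF3 and IRF7, stood at 6.09, 8.61, 10.1 and 19.5 CPM, 3.19-fold above WT in the DKO (2.80 to 3.65). Of 6 measured negative regulators 0 were called, with a median log2 fold in the DKO of -0.03 by counts and 0.32 by TPM.

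Other interferon-stimulated genes, listed apart from the members, showed a like pattern. In the DKO 16 of 45 measured were called higher than WT and 1 lower, in the Cyp3a KO 8 and 1, and in the Cyp27a1 KO 2 and 0, with median log2 folds of 0.83, 0.46 and 0.30. Beside these, the rule called 6.00%, 2.56% and 2.44% of all measured genes higher, taking DKO, Cyp3a KO and Cyp27a1 KO in turn. The shares of all genes called lower were 4.02%, 1.86% and 1.36%. Of the list, Apol9a led with 11.6 CPM in WT, 30.1 with Cyp27a1 deleted, 30.5 with Cyp3a deleted and 68.3 with both deleted. Its level in the DKO was 5.91-fold above WT (5.40 to 6.48). Parp11 was 4.13-fold above WT in the DKO (3.41 to 5.05), the chemokine gene Cxcl10 5.40-fold (3.27 to 9.45) and Ly6e 2.91-fold (2.83 to 3.005). Tor3a was the lower gene in the DKO, with a log2 fold of -1.32, and by TPM 0 genes of this list were called lower there. Class II and antigen processing genes outside the members had median log2 folds by counts of 0.54, 0.56 and 0.55 in the Cyp27a1 KO, Cyp3a KO and DKO, with 0 of 9 called in each. By TPM the medians were 0.72, 0.62 and 0.91, with 0, 1 and 3 called higher. These comparisons share the WT library, and the DKO values by counts were led by Tapbp (0.88) and Psmb10 (0.86).

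Markers of other cells were set beside these values, since in whole liver more cells of a type and more RNA per cell cannot be told apart. In the DKO, Kupffer cell markers stood above WT in 11 of 11 cases and 2 were called, Adgre1 (2.63-fold, 2.40 to 2.89) and Cd5l (2.25-fold, 2.14 to 2.36), and their part in the members' levels was not tested. In the Cyp3a KO the same 11 markers all stood below WT (median log2 fold -0.58, with Marco called lower at -1.48), while the members' median was 0.48. Summed over the list, Kupffer markers were 315 CPM in WT, 341 with Cyp27a1 deleted, 212 with Cyp3a deleted and 500 with both deleted. In the DKO against the Cyp3a KO 11 of 11 were above 0, with a median log2 fold of 1.19 and 7 called higher (10 by TPM), and in the DKO against the Cyp27a1 KO 11 of 11, with 0.75 and 3 called (4 by TPM). Their part in the calls of Oasl1, Trim30a, Ifit1, Usp18, Ifi44 and Ddx58 in those pairs was not tested. Markers of T and NK cells summed to between 2.39 and 2.66 CPM and those of neutrophils to between 0.402 and 0.999 CPM, with Ly6g at 0 counts in each library. Within the T and NK sum Cd4 had 54, 26, 58 and 17 counts in WT, Cyp27a1 KO, Cyp3a KO and DKO. Other genes of that sum ran otherwise, Cd3e with 5, 19, 11 and 14 counts and Nkg7 with 5, 19, 12 and 18. Dendritic cell markers summed to between 3.58 and 3.80 CPM, including Siglech of plasmacytoid cells at 17 to 24 counts. Within that sum Ccr9 had 19, 13, 19 and 5 counts in WT, Cyp27a1 KO, Cyp3a KO and DKO, and Itgax 20, 54, 31 and 73. Monocyte and macrophage markers summed to 41.2, 37.8, 28.4 and 48.4 CPM in that order. In the DKO 3 of 3 measured stood above WT, with 0 called. The 4 globin genes among the erythroid markers, which follow the blood held in the tissue, summed to 520 CPM in WT, 303 with Cyp27a1 deleted, 183 with Cyp3a deleted and 251 with both deleted. Alas2, the fifth marker, ran otherwise, with 87.7, 145.6, 102.8 and 29.2 CPM. Of other markers, endothelial Lyve1 was called lower in the Cyp3a KO against WT (-1.44), and Sox9 of cholangiocytes in the Cyp27a1 KO (-1.13) and the DKO (-1.28). The part of these in the members' values was not tested.

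**Figure D5:**
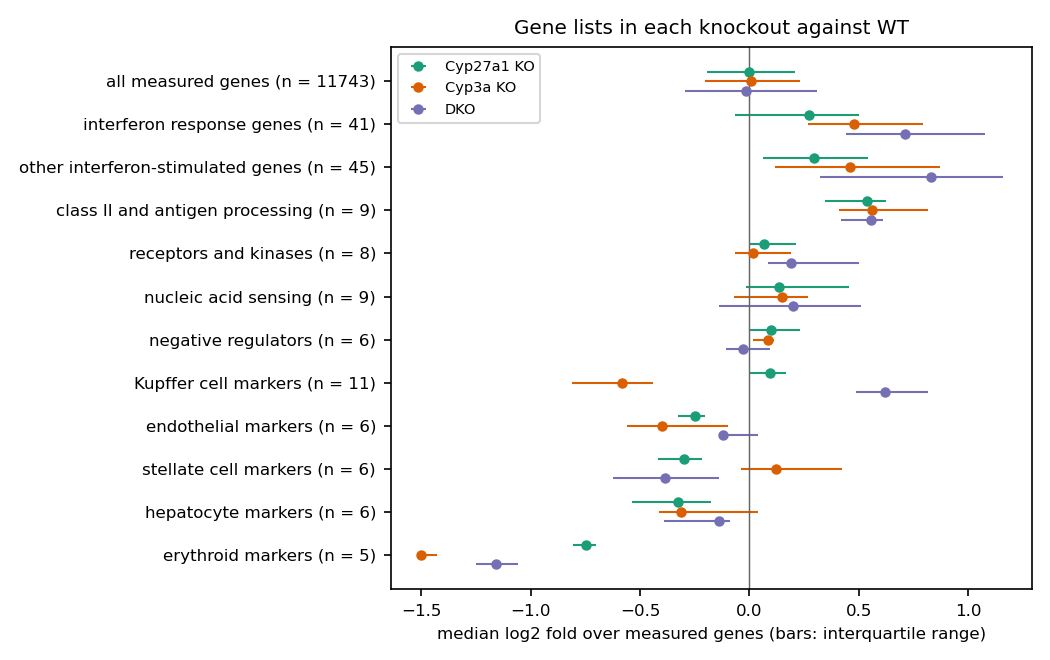
Median log2 fold against WT (horizontal axis, points) with the interquartile range over genes (bars) for the members, other gene lists of the pathway and cell markers, in the Cyp27a1 KO, Cyp3a KO and DKO libraries. The members' points lie at 0.27, 0.48 and 0.71, and those of Kupffer markers at 0.10, -0.58 and 0.62.

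These counts depend on the scale and on the fold rule. On deposited TPM, which put the median gene at 0.18, 0.09 and 0.33 in the Cyp27a1 KO, Cyp3a KO and DKO against WT, 16 of 38 measured members were called higher than WT there (42.1%), beside 11.5% of all genes; recentred on the median gene it was 10 of 38 (26.3%), beside 6.17%. At a 4-fold rule no member was called in any comparison. In the DKO against WT, by counts, Dhx58 (log2 fold 0.96) lay just outside the rule and Oas2 (1.04) just inside. Psmb9, Cmpk2, Oas1g and Ifi44 had CPM ratios there of 2.05, 2.01, 2.197 and 2.26 that fell under the rule once 0.5 CPM was added.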

How the data were processed

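Liver RNA (Qiagen RNeasy, TruSeq RNA Library Prep Kit v2, per the labels' protocols) gave 1 library per genotype. A table that the authors deposited holds estimated counts by symbol; 57.7% of values were whole, and all were rounded here. The authors also deposited TPM, which sums to 1000000 per library. Per the submitters' processing notes Trimmomatic 0.33, HISAT2 2.0.5, kallisto 0.43.1 and mm10 were used, with no role stated; the gene annotation was not given in the sources used here. 1 row with a blank name (0 counts) was dropped.

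Scaling used TMM (edgeR 4.0.16 in R 4.3.3), and log2 folds are of CPM plus 0.5, which understates folds of low genes. Ratios with intervals are of CPM without it, with an exact 95% conditional binomial interval (Clopper-Pearson), and intervals of single levels are exact Poisson. Without molecular identifiers, reads may be copies of 1 molecule. A count of 0 allows 3 counts. The calling rule was tested on simulated counts with counting error only. Without variation between mice, this cannot show how often the rule calls genes between single mice. Departures from additivity carry a normal approximation from the counts.

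Members, lists, the rule for naming genes and the alternatives were chosen with earlier results of these data known. All members may be named, with levels in each library for those called in some comparison and the 8 with the highest mean TPM, and of other lists up to 5 genes with the largest fold in the DKO. Other genes named were chosen after their values were seen, and 1 gene of a list is not reported here. Gene positions and shared 31-base words come from GENCODE M21 (GRCm38, the mm10 build), matched by symbol for 41 of 41 members. Alternatives were library-total and median-of-ratios scaling (DESeq2 1.42.0), deposited TPM, other filters, pseudocounts and fold rules, and leaving out members thought to have near-identical copies. The other software was matplotlib 3.10.9, pandas 2.3.3, scipy 1.17.1 and numpy 2.4.6 under Python 3.11.15.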

Additional observations from a re-analysis of the deposited data

Results flagged for a closer look

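2 members moved in opposite directions by counts when the same gene was lost in the other pair of libraries, with both counting intervals away from no change. For loss of Cyp27a1, the log2 fold of Psmb9 was 0.56 from WT to the Cyp27a1 KO and -0.24 from the Cyp3a KO to the DKO, the latter being 0.28 by TPM. For loss of Cyp3a, the log2 fold of Ifitm3 was 0.084 from WT to the Cyp3a KO and -0.22 from the Cyp27a1 KO to the DKO, the latter being -0.04 by TPM. With 1 library per genotype these differences were not tested.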

How the results depend on the processing

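No paired analysis was possible because each genotype has 1 library. Under each alternative run, 0 members were called lower in any of the 5 comparisons, and the median log2 fold of the members stayed above 0 in each. Median-of-ratios scaling, no filter and no counting interval changed no count by over 1.5 times. In what follows the comparisons are Cyp27a1 KO, Cyp3a KO and DKO against WT, then the DKO against the Cyp3a KO and against the Cyp27a1 KO, with 1, 5, 12, 2 and 4 members higher. A 1.5-fold rule gave 8, 18, 22, 10 and 17, beside 6.89%, 7.38%, 13.6%, 9.59% and 7.89% of all genes (19.5%, 43.9%, 53.7%, 24.4% and 41.5% of members), and a 4-fold rule gave 0 in each. A pseudocount of 0.1 gave 3 and 8 in the single knockouts against WT (7.32% and 19.5%), beside 2.91% and 3.09% of all genes. A pseudocount of 2 gave 0, 1, 8, 0 and 2 (0.00%, 2.44%, 19.5%, 0.00% and 4.88% of members). The shares of all genes were then 1.68%, 1.73%, 4.10%, 2.65% and 1.97%. The members' medians were 0.49 in the DKO against WT and 0.35 in the DKO against the Cyp27a1 KO. A mean CPM of at least 5 kept 27 members and gave 2 in the Cyp3a KO against WT (7.41%, beside 2.48% of all genes). In the comparisons of the DKO it gave 7, 1 and 2 (25.9%, 3.70% and 7.41%, beside 5.09%, 3.01% and 2.03%). Medians in those comparisons were 0.55, 0.051 and 0.36. Library-total scaling, which moved the median gene to 0.17 in the DKO against WT, gave 2 in the Cyp27a1 KO against WT (4.88%, beside 2.76%). For the DKO against the Cyp3a KO and the Cyp27a1 KO it gave 4 and 7 (9.76% and 17.1%, beside 4.97% and 3.58%). Medians in the comparisons of the DKO were then 0.91, 0.27 and 0.58. Deposited TPM gave 7 in the DKO against the Cyp27a1 KO (18.4%, beside 4.24%), and medians in the 5 comparisons of 0.39, 0.59, 0.92, 0.33 and 0.64. Recentred TPM gave a median of 0.59 in the DKO against WT and 0 calls in the DKO against the Cyp3a KO, beside 4.18%. Without the 9 members listed as having near-identical copies the Cyp27a1 KO against WT and the DKO against the Cyp3a KO had 0 calls, and the medians of the DKO against the Cyp3a KO and against the Cyp27a1 KO were 0.058 and 0.36. Of these Oasl1, Oasl2 and Ifi27 shared at most 1.23% of their 31-base words with other genes. Among values of single members over the 5 comparisons, TPM brought 12 past the rule and ended 6 calls, recentred TPM 3 and 8, library-total scaling 14 and 0, a pseudocount of 0.1 12 and 0, and one of 2 0 and 13. The cause of these changes was not tested.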
